A study of Mus musculus with 7 samples.

Results

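Small nucleolar RNAs (snoRNAs) were described on 7 Affymetrix Mouse Gene 1.0 ST arrays. The members were chosen by symbol and not by level: all probe sets whose annotation gives exactly 1 gene symbol beginning with Snord or Snora. They are 56 of the 35557 probe sets of the value table, and they carry 51 symbols. Of these, 33 probe sets (31 symbols) belong to the box C/D class (Snord) and 23 (20 symbols) to the box H/ACA class (Snora). No measured value entered that rule, but snoRNAs as a class were taken up with the differences between these samples already known, so the counts below describe the class and are no test of it. RefSeq types 55 of the 56 as snoRNA genes and 1 as an snRNA gene. A further 41 probe sets name a Snord or Snora gene together with other symbols and are not members.

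The samples were B16F10 mouse melanoma cells and 1 culture of mouse dermal endothelial cells (MDEC), each hybridised to a single-colour array from total RNA. The MDEC sample is PECAM1+ by its label and was grown in DMEM with an endothelial growth supplement. Clones A2, A3, A4 and A5 are PECAM1+ B16F10 clones (n = 4). Clone A1 and the parental B16F10 cells are the PECAM1− samples (n = 2), so that group joins 1 clone with an uncloned population. B16F10 cells were grown in DMEM with serum, the labels give no treatment beyond harvest, and they do not say how the clones were derived, whether they arose independently, or whether the endothelial cells were primary. Each clone has 1 array and the labels state no replicate cultures, so p-values measure only the spread between these arrays. That spread holds differences between the named samples and technical variation, which cannot be told apart. All values are log2 levels of a probe set, and array medians lay between 6.12 and 6.18.

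The Pecam1 probe set was at 11.72 in MDEC and averaged 11.03 ± 0.03 over the PECAM1+ clones (SD, n = 4), against 5.43 in clone A1 and 5.27 in parental cells. All 7 melanocyte markers examined lay between 4.29 and 7.34 in MDEC, against 8.49 to 13.09 in B16F10. The 7 endothelial markers lay between 8.37 and 12.41 in MDEC. Clone A1 stood apart from the other B16F10 arrays, with 6.46% of all probe sets at least 2-fold from their mean, against 0.692% to 0.982% for each of the other 5 arrays.

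SnoRNAs are short RNAs of the nucleolus that direct chemical changes of ribosomal RNA by base pairing. Box C/D snoRNAs guide ribose methylation by the methyltransferase fibrillarin, and box H/ACA snoRNAs guide the change of uridine to pseudouridine by dyskerin. A few, such as U8, U14, U17 and U22, take part in the cutting of the ribosomal RNA precursor. Most mammalian snoRNAs lie in introns of host genes, many of them ribosomal protein genes or noncoding Snhg genes, and are trimmed out of the spliced intron, so a host transcript and its snoRNA can differ in abundance. A snoRNA probe set cannot tell the mature snoRNA from the intron of an unspliced host transcript. Whether RNAs this short were retained by the column extraction is not given in the sources used here. In such bulk RNA, fewer cells of a kind and less RNA per cell cannot be told apart. The targets named below are those described for the human counterparts.

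The start sites of 3 ribosomal protein genes that host snoRNAs described below are shown as examples, chosen by hand. RefSeq holds host promoters in the assembly GRCm38.p6, and each stretch shown runs from 30 bases before to 20 bases from the annotated start, 5′ to 3′ on the gene's strand, with the longest unbroken run of C and T letters near the start in capitals. Ribosomal protein genes are known for a pyrimidine run at the start of their transcripts. Rpl13a, host of Snord33 and Snord35a, lies at chr7:45128726-45128775 on the minus strand. Rpl4, host of Snord16a, lies at chr9:64173357-64173406 on the plus strand. Rpl27a, host of Snora3, lies at chr7:109519165-109519214 on the plus strand.
Rpl13a: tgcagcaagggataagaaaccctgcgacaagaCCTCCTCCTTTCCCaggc
Rpl4: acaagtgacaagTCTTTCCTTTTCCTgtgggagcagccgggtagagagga
Rpl27a: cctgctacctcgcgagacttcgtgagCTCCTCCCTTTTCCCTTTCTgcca
A run of at least 8 letters that are each C or T, searched on the transcript strand within 10 bases of the start, was found in 11 of 29 host genes with a promoter in the table (37.9%) and in 4259 of all 27025 genes (15.8%). It was found in 5 of 14 hosts of box C/D snoRNAs and in 6 of 16 hosts of box H/ACA snoRNAs. The 3 hosts shown all hold such a run, but only that of Rpl27a crosses the annotated start (offsets −4 to 16). The run of Rpl13a begins at offset 2, and that of Rpl4 lies wholly before the start (offsets −18 to −4). Most hosts do not hold such a run, and nothing is read from the examples. The presence of these letters is a description of the window and says nothing about a factor.

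Box C/D probe sets were lower in the PECAM1+ clones than in the PECAM1− samples, while box H/ACA probe sets lay on both sides of 0. The median difference, PECAM1+ minus PECAM1−, was −0.60 over the 33 box C/D probe sets, −0.02 over the 23 box H/ACA probe sets and 0.00 over all 35557 probe sets. Of the box C/D probe sets 30 of 33 had a difference below 0, and of the box H/ACA probe sets 12 of 23, against 48.4% of all probe sets. The box C/D differences ran between the quartiles from −0.77 to −0.24 and the box H/ACA differences from −0.27 to 0.08. None of the 56 passed limma's test (Benjamini-Hochberg adjusted p from 0.162 for Snord49b to 0.989 for Snora69), where 1 probe set of the whole table, that of Pecam1, was called (0.00281%). At an unadjusted limma p under 0.05 there were 21 lower members and 2 higher ones, against 5.14% of all probe sets lower and 4.57% higher. The 2 higher ones are probe sets of Snord118 with identical values on all arrays.

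All 4 clones lay below both PECAM1− arrays for 20 of the 33 box C/D probe sets and 3 of the 23 box H/ACA probe sets, against 8.52% of all probe sets. All 4 lay above both for 1 box C/D probe set and for 2 box H/ACA probe sets, both of Snora3, against 8.57%. The PECAM1+ clones were at least 1.5-fold lower for 17 box C/D and 2 box H/ACA probe sets (4.19% of all probe sets), and at least 2-fold lower for 2 box C/D probe sets (0.872%). No member was at least 1.5-fold higher, where 3.21% of all probe sets were.

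**Figure D1:**
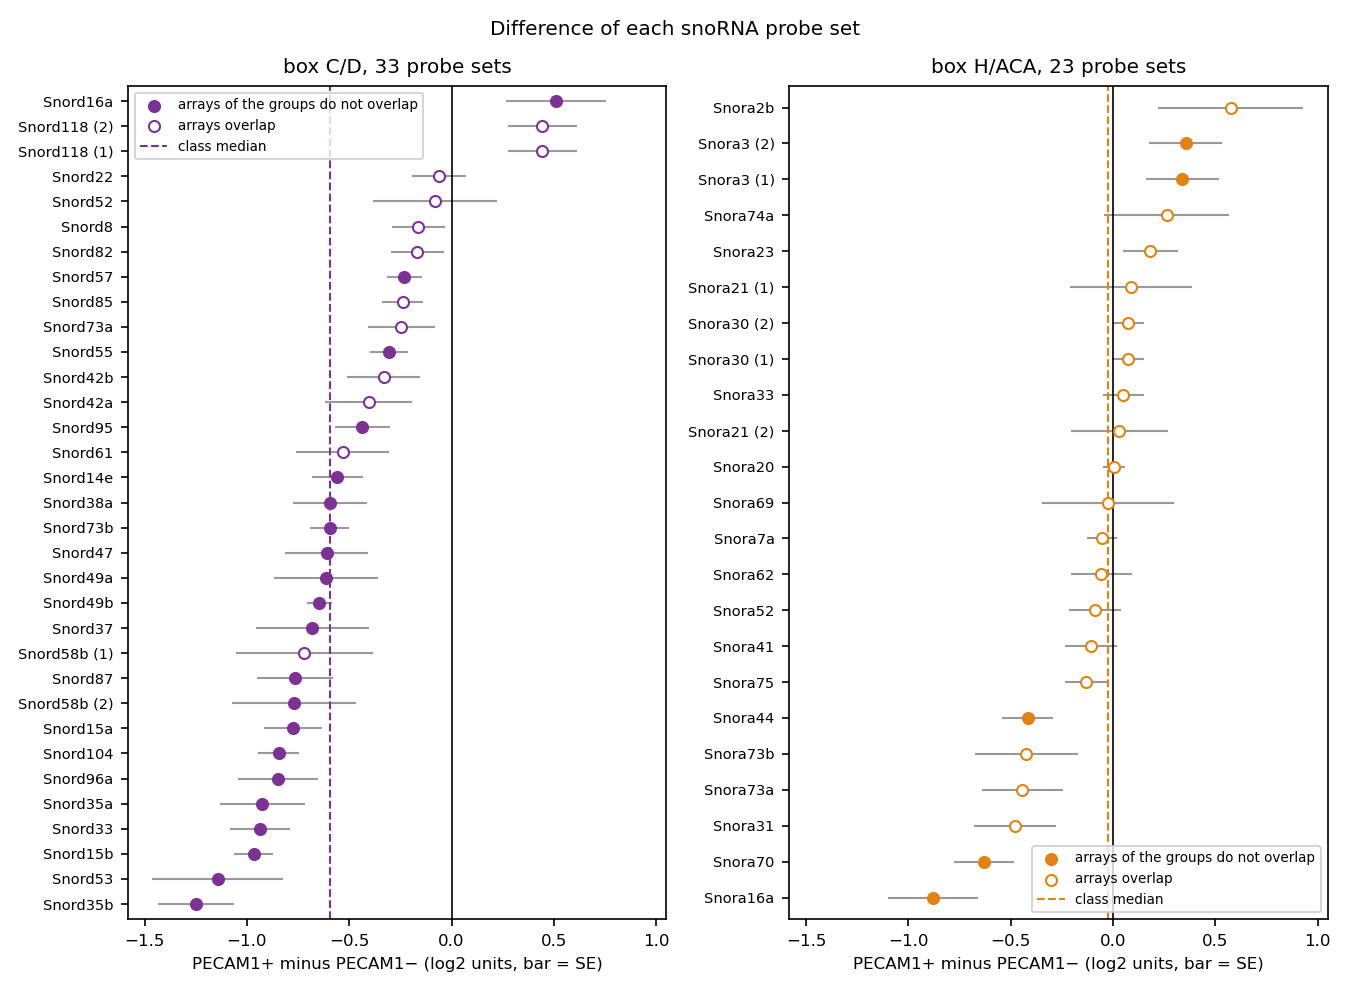
Difference of each snoRNA probe set, PECAM1+ clones (n = 4) minus PECAM1− samples (n = 2), in log2 units on the horizontal axis, with the limma SE as a bar. Filled points are probe sets whose groups do not overlap, and the dashed line is the class median, −0.60 for box C/D on the left and −0.02 for box H/ACA on the right.

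Snord35b, which guides methylation of large-subunit ribosomal RNA, had the largest negative difference. It was at 8.78, 8.76, 8.26 and 8.55 in clones A2 to A5, against 9.69 in clone A1 and 9.98 in parental cells. The clones were thus all below both PECAM1− arrays, and the difference of −1.25 ± 0.18 (SE) had a limma adjusted p of 0.294. Its relative Snord35a, in an intron of Rpl13a, was at 9.30, 9.30, 8.67 and 9.20 in the clones, against 9.97 in clone A1 and 10.12 in parental cells. Snord33, from another intron of Rpl13a and a guide for small-subunit ribosomal RNA, was at 7.30, 7.24, 6.94 and 7.25 in the clones, against 7.95 and 8.29. These neighbours differed by −0.92 ± 0.21 and −0.94 ± 0.15, and clone A4 was the lowest array for both.

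Snord53, a guide for large-subunit ribosomal RNA in an intron of Wdr43, was at 10.02, 10.02, 9.40 and 9.80 in clones A2 to A5, against 10.48 in clone A1 and 11.43 in parental cells. The groups did not overlap, but clone A1 lay nearer to the clones than to parental cells, and the difference was −1.14 ± 0.32 (SE). Snord15b, a large-subunit guide in an intron of Rps3, was at 8.17, 8.07, 7.97 and 8.19 in the clones, against 8.99 in clone A1 and 9.14 in parental cells. Its groups were tight, and the difference of −0.97 ± 0.10 (SE) had a limma adjusted p of 0.188. Snord15a, from the same host, differed by −0.78 ± 0.14. Snord96a, a guide for 5.8S ribosomal RNA in an intron of Rack1, was at 7.12, 6.64, 6.88 and 6.98 in the clones, against 7.50 and 8.01, and differed by −0.85 ± 0.20.

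Snord49b, in the noncoding host 2410006H16Rik, had the smallest limma p of the class. It was at 10.94, 10.94, 10.85 and 10.97 in clones A2 to A5, against 11.52 in clone A1 and 11.62 in parental cells. The clones spanned less than the gap to the PECAM1− arrays, and the difference was −0.65 ± 0.06 (SE). Snord104, a large-subunit guide, differed by −0.85 ± 0.10, with clones between 10.16 and 10.42, against 11.10 in clone A1 and 11.24 in parental cells.

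Box C/D members on the other side were few. Snord16a, a small-subunit guide in an intron of Rpl4, was at 10.80, 10.79, 11.46 and 11.12 in clones A2 to A5, against 10.30 in clone A1 and 10.75 in parental cells. All clones were above both PECAM1− arrays, A2 and A3 only just above parental cells, and the difference was 0.51 ± 0.24 (SE). Snord118, or U8, acts in the processing of large-subunit ribosomal RNA and is transcribed from a unit of its own. It was at 5.07, 4.87, 5.17 and 5.08 in the clones, against 4.34 in clone A1 and 4.87 in parental cells. Its 2 probe sets hold identical values on all arrays and count as 1 measurement, which differed by 0.44 ± 0.17. Snord22, or U22, which acts in small-subunit processing and lies in Snhg1, differed by −0.06 ± 0.13, Snord52 by −0.08 ± 0.30 and Snord8 by −0.16 ± 0.13. For Snord22 and Snord52 all clones lay above clone A1 and below parental cells.

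**Figure D2:**
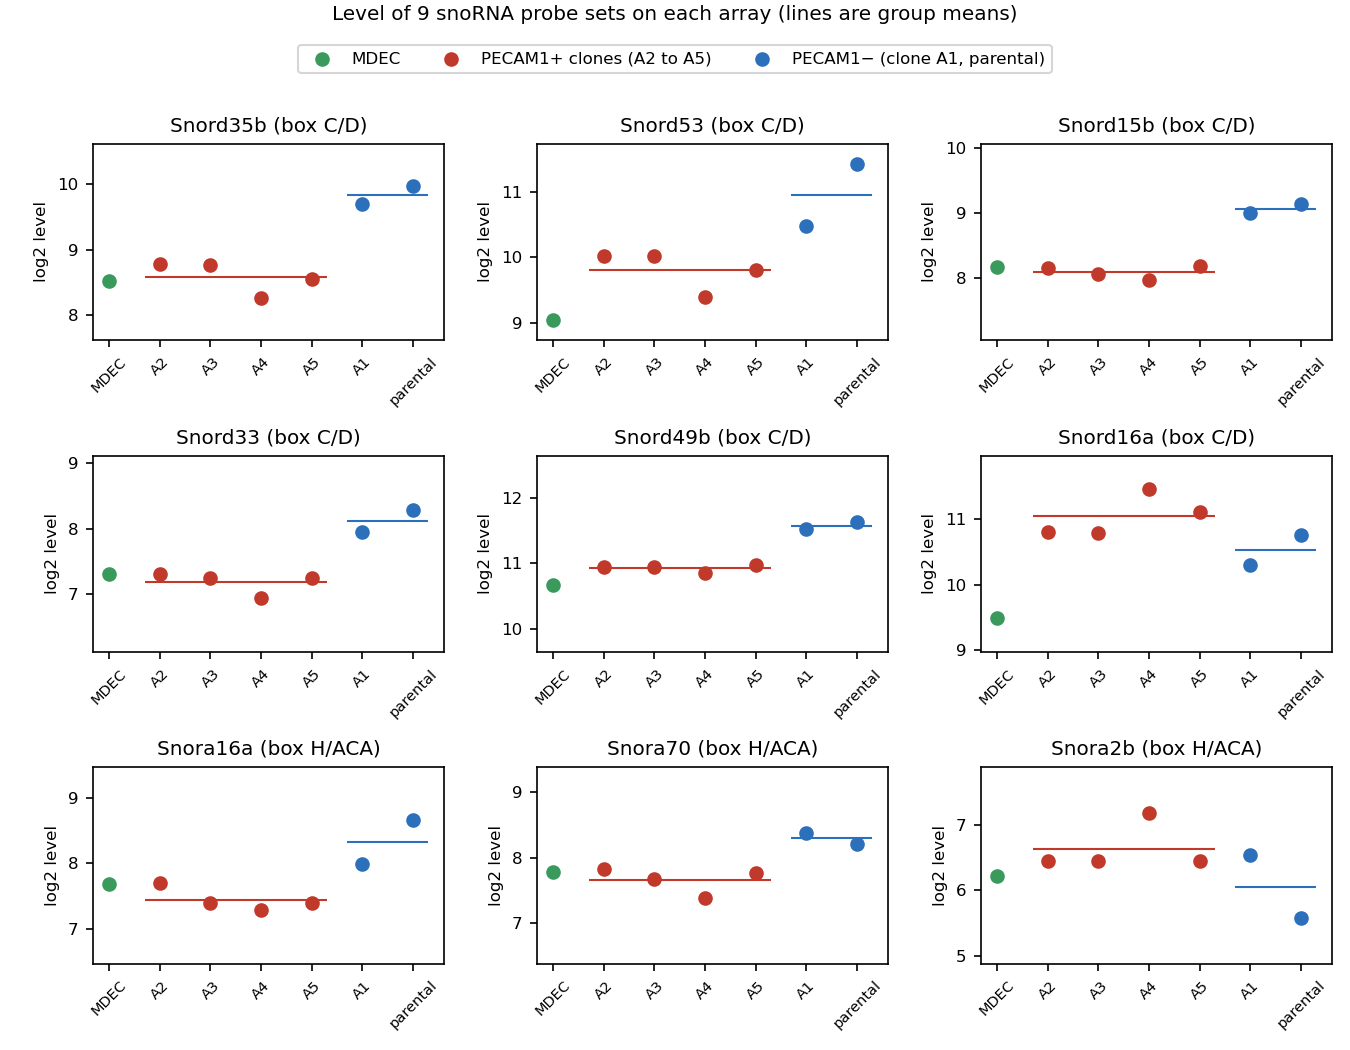
Log2 level of 9 snoRNA probe sets on each of the 7 arrays, in the order MDEC, PECAM1+ clones A2 to A5, clone A1 and parental cells, with group means as lines. The clones lie below both PECAM1− arrays for Snord35b, Snord53, Snord15b, Snord33, Snord49b, Snora16a and Snora70, above both for Snord16a, while for Snora2b the groups overlap.

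The box H/ACA class held 3 symbols with separate, lower groups. Snora16a, a guide for large-subunit ribosomal RNA in Snhg12, was at 7.69, 7.40, 7.28 and 7.39 in clones A2 to A5, against 7.99 in clone A1 and 8.65 in parental cells. It differed by −0.88 ± 0.22 (SE, limma adjusted p = 0.386). Snora44, a small-subunit guide from the same host, differed by −0.42 ± 0.12. Snora70, a small-subunit guide in an intron of Rpl10, was at 7.83, 7.68, 7.39 and 7.77 in the clones, against 8.38 in clone A1 and 8.21 in parental cells, and differed by −0.63 ± 0.15. Snora73a and Snora73b, the U17 snoRNAs of Snhg3 that act in the cutting of the small-subunit precursor, differed by −0.44 ± 0.20 and −0.42 ± 0.25, and Snora31 by −0.48 ± 0.20. For Snora73b clone A1 lay at 7.98, within the clones' range of 7.90 to 8.15, and parental cells at 8.86.

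On the higher side of this class, Snora3, a large-subunit guide in an intron of Rpl27a, was at 9.09, 9.04, 9.56 and 9.21 in clones A2 to A5 on its first probe set, against 8.75 in clone A1 and 9.02 in parental cells. Its 2 probe sets gave differences of 0.34 ± 0.18 and 0.36 ± 0.18 (SE). Snora2b, a large-subunit guide in an intron of Kansl2, was at 6.45 in clones A2, A3 and A5 and at 7.19 in clone A4, against 6.54 in clone A1 and 5.58 in parental cells. The difference of 0.58 ± 0.35 therefore combined arrays that overlap. Snora74a differed by 0.26 ± 0.31, Snora23 by 0.18 ± 0.13 and Snora21, on the probe set with the larger difference, by 0.09 ± 0.30. For Snora21 clone A1 was at 7.13 and parental cells at 8.19 on that probe set, on both sides of the clones at 7.58 to 7.84.

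Some members were dim or nearly constant. Of the 56 probe sets, 48 passed a filter at the 40th percentile of mean level (26 box C/D and 22 box H/ACA), and the files give no detection calls. Among the dimmer ones Snord61, Snord38a and Snord58b ran from 3.62 to 5.88 in B16F10. Snora20 was at 5.80 on 5 of the 7 arrays and Snora30 at 6.99 on 3 of them. Such repeated values are a property of the table, where any 2 B16F10 arrays agree exactly for 7.56% to 11.0% of all probe sets.

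The class medians were also separated by array. As the median deviation from the mean of the 6 B16F10 arrays, box C/D probe sets were at −0.24 in MDEC and at −0.07, −0.13, −0.29 and −0.21 in clones A2 to A5, against 0.26 in clone A1 and 0.48 in parental cells. All 4 clones were thus below both PECAM1− arrays. Box H/ACA probe sets were at −0.22 in MDEC and at −0.03, −0.06, 0.00 and 0.01 in the clones, against −0.05 in clone A1 and 0.13 in parental cells. Parental cells were the highest of the 6 B16F10 arrays for 23 of 33 box C/D and 10 of 23 box H/ACA probe sets, against 14.9% of all probe sets. Clone A1 was the highest for 7 box C/D and 3 box H/ACA probe sets, against 25.8%.

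**Figure D3:**
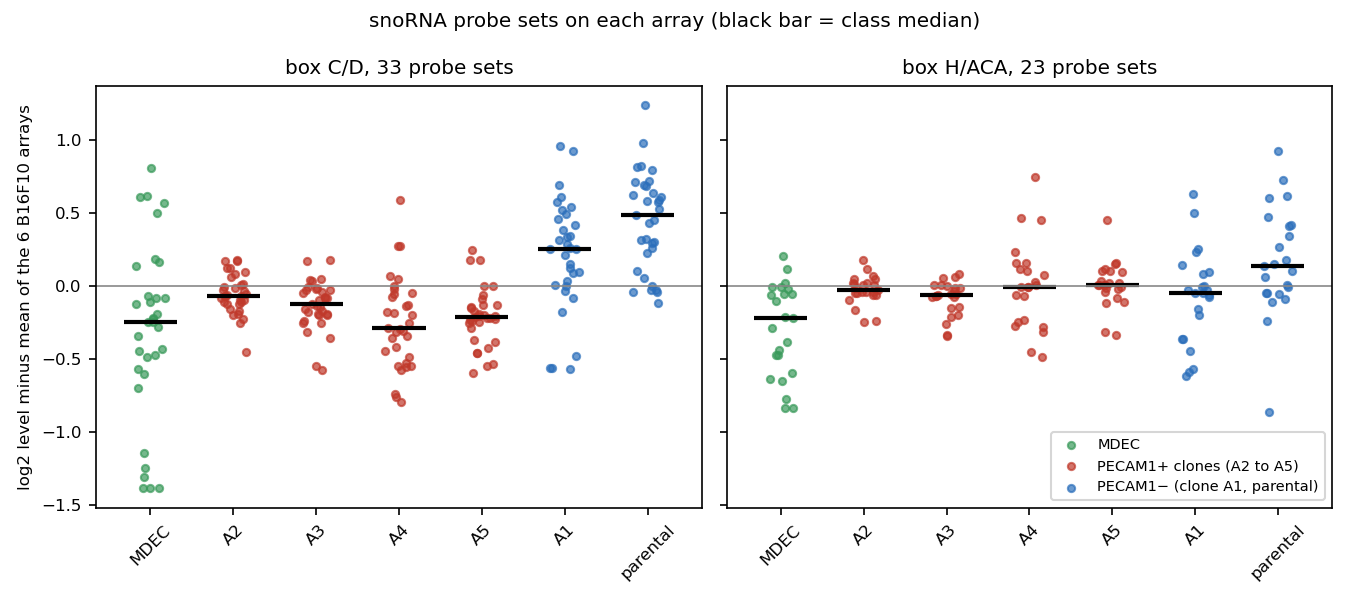
Deviation of each snoRNA probe set from its mean over the 6 B16F10 arrays, in log2 units, for MDEC, PECAM1+ clones A2 to A5, clone A1 and parental cells, with class medians as black bars. Box C/D medians lie between −0.29 and −0.07 in the clones, against 0.26 in clone A1 and 0.48 in parental cells, while box H/ACA medians of the B16F10 arrays lie between −0.06 and 0.13.

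Within the box C/D class the probe sets tended to order the arrays alike. Over the 6 B16F10 arrays the median Pearson correlation between 2 box C/D symbols was 0.69 over 465 pairs, and between 2 box H/ACA symbols 0.06 over 190 pairs. These pairs share arrays and their depth of signal, and the 6 arrays span both PECAM1 groups. The correlations thus hold the group difference already given. They were not computed over all probe sets and are given as a description. Among the PECAM1+ clones the median SD of a probe set was 0.155 for box C/D, 0.134 for box H/ACA and 0.112 for all probe sets. The members that varied most among the clones were Snord37 (SD 0.40), which was at 6.20, 6.32, 5.60 and 5.55 in clones A2 to A5, Snora2b (0.37) and a probe set of Snord58b (0.33).

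The comparison with each PECAM1− sample alone used the same 4 clones, so the 2 comparisons share those arrays. Against clone A1, with a lone array assumed to vary like the clones, 8 of the 56 probe sets were called by limma, against 13.9% of all probe sets. The share among members was 14.3%, near that of the table, with 4 lower (7.47% of all probe sets) and 4 higher (6.39%). Snord15b fell by 0.89 ± 0.11 (SE, limma adjusted p = 0.0192), Snord49b by 0.60 ± 0.06 (0.0139), Snord104 by 0.77 ± 0.12 (0.0336) and Snord14e, a U14 RNA in an intron of Hspa8, by 0.71 ± 0.12 (0.0406). Both probe sets of Snord118 rose by 0.71 ± 0.13 (0.0411), Snora33 by 0.22 ± 0.04 (0.0489) and 1 of the 2 probe sets of Snora21 by 0.46 ± 0.07 (0.0337). The other probe set of Snora21 differed by 0.62 ± 0.12 with a limma adjusted p of 0.0514. The number of calls fell with any clone left out, among the members and in the whole table. When only probe sets with 1 symbol were tested, the share called rose among the members and over all probe sets tested. The class medians were −0.33 for box C/D (28 of 33 below 0) and 0.06 for box H/ACA (7 of 23 below 0), against 48.4% of all probe sets below 0.

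Several larger differences from clone A1 did not pass. The 2 probe sets of Snord58b, large-subunit guides in Rpl17, differed by −1.20 and −1.18, with clones between 4.33 and 4.998 against 5.84 in clone A1 on the first. Parental cells were at 4.88 there, within the range of the clones. Snord35b differed from clone A1 by −1.11, Snord35a by −0.85 and Snord37 by −0.83, while Snord16a differed by 0.74, Snora74a by 0.70 and Snora69 by 0.56. All 4 clones lay below clone A1 for 23 box C/D and 5 box H/ACA probe sets (28.1% of all probe sets), and above it for 5 and 7 (29.8%).

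Against parental cells 0 of the 56 were called by limma, with 1 call in the whole table (0.00281%), and 32 of 56 had an unadjusted limma p under 0.05, against 12.1% of all probe sets. Of these 31 were lower, 22 box C/D and 9 box H/ACA, against 5.76% of all probe sets. The class medians were −0.64 for box C/D (30 of 33 below 0) and −0.17 for box H/ACA (15 of 23 below 0), against 0.00 over all probe sets, of which 49.3% were below 0. At least 1.5-fold lower were 18 box C/D and 4 box H/ACA probe sets (2.25% of all), and at least 2-fold lower 6 and 1 (0.413%). All 4 clones lay below parental cells for 27 box C/D and 11 box H/ACA probe sets, against 21.1% of all probe sets.

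The largest differences from parental cells were −1.62 ± 0.28 (SE) for Snord53, −1.39 ± 0.24 for Snord35b and −1.21 ± 0.18 for Snora16a. Snord33 and Snord96a followed at −1.10, and Snord15b at −1.04. On the other side Snora2b differed by 1.06 ± 0.36, Snora23 by 0.30 ± 0.16 and Snord16a by 0.29 ± 0.31. The box C/D members that separated the clones from parental cells but hardly from clone A1 included Snord42b, which was at 8.94, 8.87, 8.97 and 8.88 in clones A2 to A5, against 8.94 in clone A1 and 9.55 in parental cells. Snord42a, from the same host Rpl23a, differed by −0.10 from clone A1 and −0.71 from parental cells.

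Host genes were compared with the snoRNAs in their introns. The gene table placed 51 of the 56 probe sets inside 1 other gene, 24 of them in a ribosomal protein gene (14 box C/D and 10 box H/ACA), and the 2 probe sets of Snord118 in none. For 26 snoRNA symbols the host has a probe set of its own. It was taken by symbol and level, and whether it lies at the host gene itself was not checked. Over the 13 box C/D symbols among them the median difference of PECAM1+ minus PECAM1− was −0.53 for the snoRNA and 0.28 for the host, and the snoRNA lay below its host in 12 of 13. Against clone A1 alone these medians were −0.33 and 0.45, and against parental cells alone −0.64 and 0.01, where 6 of the 10 hosts had a difference below 0. The snoRNA lay below its host in 12 of 13 against clone A1 and in 11 of 13 against parental cells. Over the 13 box H/ACA symbols the medians were 0.01 and 0.18, and the snoRNA lay below its host in 10 of 13. In the comparison with both PECAM1− samples no host was called by limma. The Pearson correlation of snoRNA and host differences was −0.34 over the box C/D pairs and 0.35 over the box H/ACA pairs, given as a description since all pairs share the same arrays and some share a host.

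Rps3, which encodes a protein of the small ribosomal subunit, was at 11.39, 11.31, 11.39 and 11.59 in clones A2 to A5, against 10.97 in clone A1 and 11.14 in parental cells. All clones were above both PECAM1− arrays, a difference of 0.36 ± 0.10 (SE, limma adjusted p = 0.397), where its snoRNAs Snord15b and Snord15a differed by −0.97 and −0.78. Wdr43, a small-subunit processing factor, differed by 0.41 ± 0.28 and Snord53 in its intron by −1.14. Wdr43 was at 9.97, 10.16, 9.90 and 10.25 in the clones, against 9.18 in clone A1 and 10.14 in parental cells, so its difference came from clone A1. Nop56, a core protein of box C/D particles and host of Snord57, differed by 0.48 ± 0.32 and Snord57 by −0.23 ± 0.09. Nop56 was at 11.60, 11.57, 11.42 and 11.61 in the clones, against 10.48 in clone A1 and 11.66 in parental cells, so it too was low in clone A1. From parental cells alone Nop56 differed by −0.11 and Snord57 by −0.13.

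Of other pairs, Snora3 and Snora23 lay close to their hosts, while Snord16a and Snora70 did not. Rpl27a differed by 0.42 ± 0.12 (SE) and Snora3 by 0.34 and 0.36. Ipo7, an importin gene, differed by 0.17 and Snora23 by 0.18. Rpl4 differed by −0.03 ± 0.06 while Snord16a differed by 0.51, the 1 box C/D symbol above its host. Rpl10 differed by 0.06 and Snora70 by −0.63. Rpl13a and Rpl17 are measured only by probe sets with several symbols and Rack1, Snhg1, Snhg3, Snhg4 and Snhg12 have no probe set in the annotation, so no host value stands beside their snoRNAs.

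**Figure D4:**
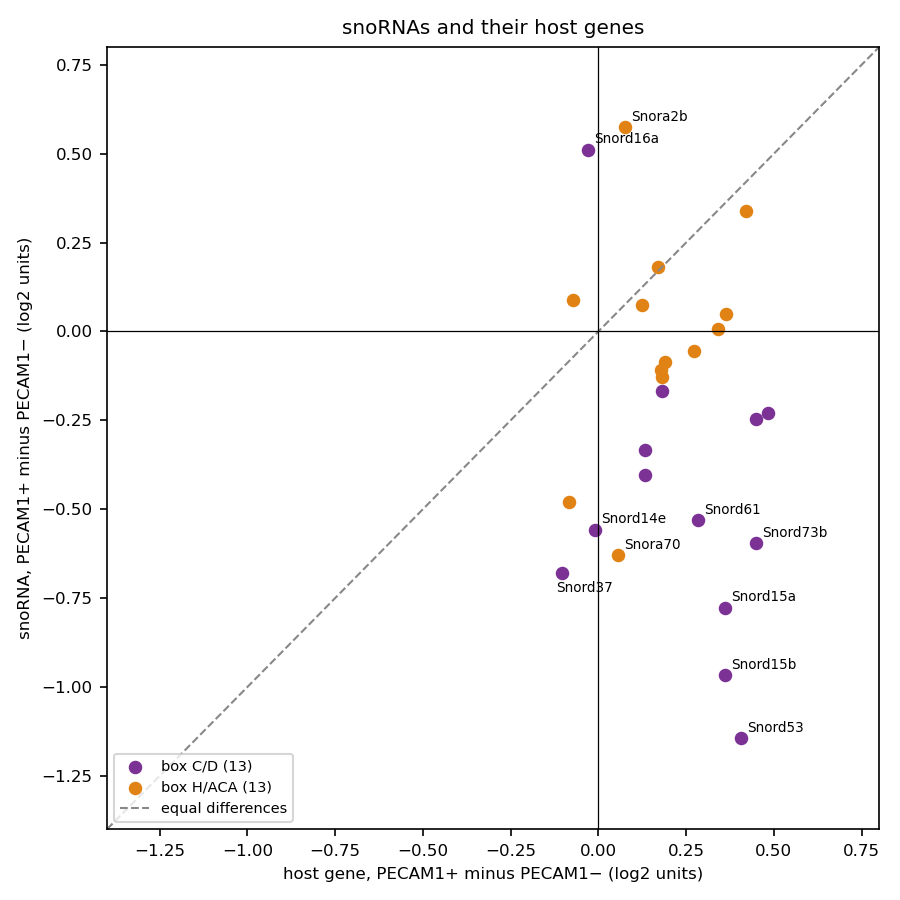
Difference of 26 snoRNA symbols (vertical axis) against that of their host gene (horizontal axis), PECAM1+ minus PECAM1− in log2 units, with the line of equal differences dashed. Of the 13 box C/D symbols 12 lie below the line, with hosts between −0.10 and 0.48, and of the 13 box H/ACA symbols 10 lie below it.

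SnoRNAs of 1 host mostly differed alike. The pairs were −0.92 and −0.94 in Rpl13a, −0.97 and −0.78 in Rps3, −0.65 and −0.61 in 2410006H16Rik, −0.41 and −0.33 in Rpl23a, and −0.42 and −0.44 in Snhg3. They lay farther apart in Rack1 (−0.85 for Snord96a and −0.44 for Snord95), Snhg12 (−0.88 and −0.42) and Rps3a1 (−0.25 and −0.60). Ncl, the nucleolin gene, holds a member of each class, Snora75 at −0.13 and Snord82 at −0.17. By kind of host, box C/D probe sets had a median of −0.66 in ribosomal protein hosts (n = 14) and −0.54 in other hosts (n = 14), and box H/ACA probe sets 0.00 (n = 10) and −0.11 (n = 13). Against clone A1 alone the box C/D medians were −0.61 in ribosomal protein hosts and −0.32 in other hosts, and the box H/ACA medians 0.34 and 0.01. The kinds were not tested against each other.

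Unlike the box C/D RNAs, transcripts of the snoRNA particle proteins were not lower in the PECAM1+ clones than in both PECAM1− samples together. Protein was not measured. The comparisons with clone A1 alone and with parental cells alone differed, as given below. Genes of the box C/D core proteins with a probe set of their own were Fbl, Nop56, Nop58 and Snu13. They are 4 of 5 symbols looked up, which include an older name of Snu13. Their median difference from the PECAM1− samples was 0.55, with 0 called by limma. Against clone A1 all 4 were higher (median 1.08), where 48.4% of all probe sets had a difference below 0. Against parental cells 2 of the 4 were higher (median −0.01), where 49.3% of all probe sets were below 0. Fbl, the methyltransferase fibrillarin, was at 10.22, 9.98, 9.90 and 10.18 in clones A2 to A5, against 8.82 in clone A1 and 10.00 in parental cells. Clone A1 was the low array. The 4 genes of box H/ACA core proteins had a median of 0.58 from the PECAM1− samples, 1.24 from clone A1 and −0.04 from parental cells. All 4 were higher in the clones than in clone A1, Dkc1 (dyskerin) by 1.69, Nhp2 by 1.47, Gar1 by 1.01 and Nop10 by 0.56. Of 12 assembly and processing factor genes, 10 were higher in the PECAM1+ clones than in clone A1 (median of the list 0.29). Ruvbl2 (0.95) and Nolc1 (0.92) rose most. Against parental cells 4 of the 12 were higher (median −0.09), and against both PECAM1− samples 0 were called by limma (median 0.13). Of the 8 measured genes of a host and imprinted noncoding gene list, 7 were higher than in clone A1, among them Snhg5 by 1.38. Meg3 was higher by 0.31, and Gas5 differed by −0.53. The median of the list against both PECAM1− samples was 0.05. In clone A1 the core protein genes were thus low while box C/D snoRNA probe sets were high, and the part of that array's wide differences in these values was not tested.

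MDEC were set against B16F10 with 1 array and no test. A probe set counted as different where MDEC lay 2-fold or more from the B16F10 level (the average of the PECAM1+ and PECAM1− means) and beyond every one of the 6 B16F10 arrays. By that rule 6 of the 56 probe sets were lower in MDEC, all box C/D, against 5.28% of all probe sets, and 0 were higher, against 5.30%. The 6 carry 4 symbols: Snord58b and Snord118 with 2 probe sets each, Snord53 and Snord16a. No member was 4-fold apart. The median difference, MDEC minus B16F10, was −0.34 for box C/D (25 of 33 below 0) and −0.22 for box H/ACA (21 of 23 below 0), against 0.00 for all probe sets. MDEC lay below all 6 B16F10 arrays for 11 box C/D and 10 box H/ACA probe sets (23.5% of all) and above them for 3 box C/D probe sets (25.4%).

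**Figure D5:**
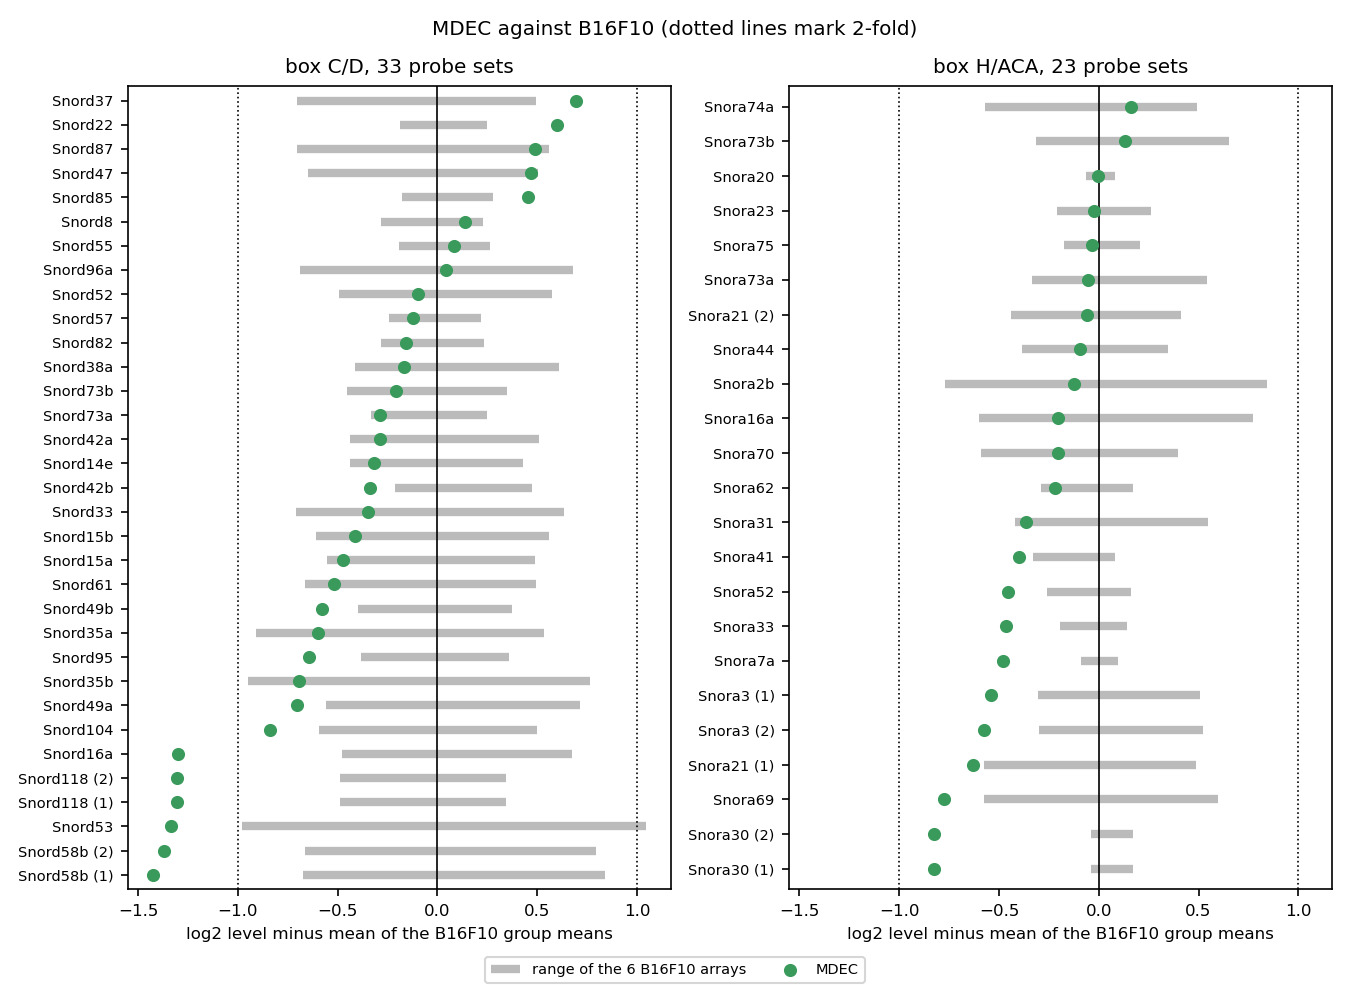
MDEC (points) against B16F10, as log2 level minus the mean of the PECAM1+ and PECAM1− means, with the range of the 6 B16F10 arrays as grey bars and 2-fold as dotted lines. Box C/D probe sets are on the left, where 6 points lie below −1 and none above 1, and box H/ACA probe sets on the right, where all points lie between −0.82 and 0.16.

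Snord16a was at 9.48 in MDEC, against 10.79 to 11.46 in the PECAM1+ clones, 10.30 in clone A1 and 10.75 in parental cells, a difference of −1.30. Snord53 was at 9.04 in MDEC, against 9.40 to 11.43 in B16F10, a difference of −1.34. Snord118 was at 3.52 in MDEC, against 4.34 to 5.17 in B16F10, and Snord58b at 3.57 and 3.71 on its 2 probe sets, differences of −1.31 for Snord118 and −1.43 and −1.37 for Snord58b. The last 2 are dim probe sets, and without those under the 40th percentile of level 2 probe sets met the rule. The box H/ACA members farthest below were Snora30 and Snora69. Snora30 was at 6.21 in MDEC against 6.99 to 7.20 in B16F10, and Snora69 at 6.41 against 6.61 to 7.78.

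Higher in MDEC were Snord37, a large-subunit guide in Eef2, at 6.95 in MDEC against 5.55 to 6.75 in B16F10, Snord22 at 6.93 against 6.15 to 6.58, and Snord85 at 6.10 against 5.47 to 5.93. Their differences of 0.69, 0.60 and 0.46 were under the 2-fold rule, and these 3 were the members above all 6 B16F10 arrays. Snord87 and Snord47, large-subunit guides, differed by 0.49 and 0.47 but lay within the B16F10 range, below parental cells at 8.29 and 8.88. Against the PECAM1+ clones alone MDEC were above all 4 for 9 box C/D and 2 box H/ACA probe sets (32.2% of all) and below all 4 for 11 and 11 (30.3%). Against the PECAM1− samples alone MDEC were below both for 25 box C/D and 15 box H/ACA probe sets (31.7%). Of 5 leukocyte markers with a probe set, Cd68 was at 11.18 in MDEC and Lyz2 at 11.76, while Itgam and Cd3e differed from B16F10 by 0.12 and 0.11 and Ptprc was at 4.99. Lyz2 was also higher in all 4 PECAM1+ clones, at 6.34, 8.03, 7.87 and 7.09, against 4.78 in clone A1 and 5.43 in parental cells, a difference of 2.23 ± 0.54 (SE, limma adjusted p = 0.381). Cd68 averaged 8.07 in the clones, against 10.07 in clone A1 and 7.52 in parental cells. The part of these markers in the snoRNA differences was not tested.

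Without the Snord116 family, the probe sets that name a Snord or Snora gene with other symbols gave a similar split of classes. Of 9 probe sets that name a Snord gene together with other symbols, without the Snord116 family, 8 were lower in the PECAM1+ clones, with a median of −0.73. The 8 probe sets that name a Snora gene with other symbols had a median of −0.05, 4 of them lower. The imprinted Snord116 family, which is known for expression in neurons, went the other way. It had 24 probe sets at a median level of 3.19 in B16F10, near the low end of the arrays. Their median difference was 0.08, and 0 of the 24 were lower in the PECAM1+ clones. The 4 Scarna probe sets, which measure relatives of snoRNAs in Cajal bodies, had a median of −0.71, 3 of them lower. The 296 microRNA probe sets had a median of 0.00 and the 5 Rnu probe sets −0.01. Probe sets with an Rps or Rpl symbol and number, as ribosomal protein genes have (212 in all, a list chosen after values were seen) had a median of 0.15, with 27 lower.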

How the data were processed

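Total RNA of 7 samples was hybridised to 1 array each, per the labels' protocols. The authors deposited log2 values, 1 for each probe set on each array. Partek is the tool in the submitters' processing notes, with no version. The log2 scale was judged by the range of the values. How the authors summarised, background-corrected and normalized the signals, and on which genome build, is not given here. The number of arrays limits the precision.

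Members were taken by symbol from the platform annotation. All 35557 probe sets were fitted with limma 3.58.1 in R 4.3.3 (lmFit, eBayes with trend, two-sided, Benjamini-Hochberg over all probe sets, threshold 0.05), with MDEC left out. Each difference is the PECAM1+ mean minus the PECAM1− mean, with limma's moderated SE. Fits to a lone PECAM1− sample take their spread from the 4 clones. MDEC followed the size rule given with its values. Alternatives were quantile normalization, median centring, a filter on dim probe sets, single-symbol probe sets, 1 probe set per symbol, other limma settings and leaving out each array. On simulated arrays with independent noise, 99% of 100 planted 2-fold changes were called in the fit against both PECAM1− samples, 63% against clone A1 and 65% against parental cells. The simulated arrays did not hold an array that stands apart as clone A1 does, so these are not the power in the data.

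Host genes were found by position in the RefSeq gene table (GRCm38.p6), which gives no strand, so containment ignored strand, and 3 probe sets inside several genes got no host value. Some host genes are not reported here. Where a host had several probe sets, the one with the highest mean stood for it, whatever its position. Genes were named by rule: the 6 largest positive and negative differences per class against the PECAM1− samples, the 6 largest each way over both classes in the other comparisons, the 3 largest SDs among the clones, their hosts, the particle proteins and calls. Other named members were chosen after their values were seen. The members and lists were chosen with earlier results of these data known.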

Additional observations from a re-analysis of the deposited data

Results flagged for a closer look

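Among the 4 PECAM1+ clones, 4 of 33 values tested had 1 clone far from the other clones by Dixon's criterion. Chance gives about 1 in 20 only for values not chosen by their spread. Snora2b was named for its large SD among these clones, so the count is a description. Clone A4 was at 6.944 for Snord33, where the other clones lay between 7.243 and 7.303, and at 8.668 for Snord35a, where they lay between 9.203 and 9.298. These neighbours share the host Rpl13a, so they are not independent. Clone A4 was at 7.189 for Snora2b, where clones A2, A3 and A5 were all at 6.448. Clone A5 was at 7.327 for Snora69, where the other clones were all at 7.114. Identical values across clones, as in the last 2 cases, make a single differing array stand out in this measure.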

How the results depend on the processing

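No paired analysis was possible because the clones carry no replicate number shared between groups. In the comparison with both PECAM1− samples, 0 members were called under every setting with all 6 arrays. With 1 array left out the count ran from 0 to 8, the 8 without parental cells. That fit is the comparison with clone A1 alone given above, where 13.9% of all probe sets were called. The 8 are thus the same calls, a share of the members near that of the table. The box C/D median ran from −0.64 to −0.33 and the box H/ACA median from −0.17 to 0.056 with 1 array left out. The counts of lower members whose groups do not overlap ran from 20 to 27 for box C/D. For box H/ACA they ran from 3 to 11. Without clone A1 they were 27 and 11. There the share of all probe sets was 21.1%, against 8.52% with all 6 arrays. These counts were added after seeing the data. Leaving out parental cells or clone A1 turned the sign of 5 uncalled differences among the members named by the rule for this comparison. They ran from −0.28 to 0.16 for Snord22, −0.61 to 0.45 for Snord52 and −0.86 to 0.017 for Snora73b. For Snora74a the range was −0.18 to 0.70, and for Snora21 −0.44 to 0.62. Over all 56 members, the differences from clone A1 and from parental cells had opposite signs for 12 (2 box C/D and 10 box H/ACA). Against clone A1, calls ran from 1 to 6 with a clone left out and were 14 with single-symbol probe sets only, and the box C/D median was −0.48 with the dim filter. For MDEC, 0 members were 4-fold apart, 2 met the rule with the dim filter and 6 to 7 with 1 array left out. There the box C/D median ran from −0.44 to −0.27, the box H/ACA median from −0.37 to −0.19, and the difference of Snora74a from −0.057 without clone A1 to 0.38 without parental cells. Apart from the smaller number of probe sets or arrays, the cause was not tested. Without detection calls, dim probe sets cannot be told from background.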
